A study of Mus musculus with 59 samples.

Results

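The pull-down fraction of liver small RNA was compared between a high-fat and a low-fat diet. It was taken from the libraries labelled as liver small RNA and pull-down, which are 5 of the 59 libraries of the series: high-fat libraries 1, 2 and 3 and low-fat libraries 1 and 3. The series lists no low-fat library 2 of this fraction. The 6 liver small RNA input libraries, 3 of each diet, serve as the counterpart fraction and share the estimate of spread.

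All mice were male, 12 weeks old and fed either diet for 2 weeks. Every group carried the same alleles, a knockout of Cyp3a13 (Cyp3a13tm1Ahs), a deletion from Cyp3a57 to Cyp3a59, Del(5Cyp3a57-Cyp3a59)1Ahs, and the transgene Tg(APOE-CYP3A4)A1Ahs, in which APOE sequences drive human CYP3A4, on an FVB.129P2 background. CYP3A4 is a drug-metabolizing cytochrome P450 of the liver. The series title names an RNA labelling called iTag, but which cells carried the tag is not stated in the labels, and neither is whether each library stands for its own animal. The p-values below therefore reflect variation from library to library, part of which may be technical.

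A high-fat diet supplies the liver with fatty acids, whereas a low-fat, carbohydrate-rich diet is known to drive their synthesis in hepatocytes through the transcription factors SREBP-1c and ChREBP. MicroRNAs are short RNAs that bind target mRNAs through a seed near their 5′ end, and miR-122 is the most abundant microRNA of hepatocytes. The small RNA libraries also held fragments of mRNA, tRNA, snoRNA and mitochondrial RNA, so the diet comparison covers all of these.

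The pull-down libraries held 573697 to 3338652 counts, with high-fat library 3 the shallowest and high-fat library 1 the deepest. High-fat library 2 lay closest to the input libraries, with correlations of log2 levels across genes of 0.637 to 0.781. High-fat library 3 lay farthest from the other pull-down libraries, at 0.88 to 0.909. Hepatocyte mRNA was abundant in every library, with 12879 to 88980 counts of Alb, the gene of serum albumin. Cyp3a13 had 131 to 422 counts per pull-down library, Cyp3a57 13 to 36 and Cyp3a59 22 to 114, although the labels give these genes as knocked out or deleted. Whether these reads came from parts outside the deletions or from near-identical Cyp3a copies was not tested. The diet labels were not touched by this, since all groups carry the same alleles.

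Protein-coding genes took 52.2% to 62.1% of the counts in pull-down and 33.5% to 46.2% in input. MicroRNA genes took 0.462%, 0.813% and 1.29% in high-fat libraries 1, 2 and 3, and 0.496% and 0.565% in low-fat libraries 1 and 3. High-fat library 3 was high and high-fat library 1 was the lowest of the 5, so the diets overlapped. Most of these microRNA counts were of Mir6236, taken up below. Mitochondrial rRNA took 15.6% to 20.6%, mitochondrial mRNA 6.7% to 13.6% and nuclear tRNA 0.196% to 0.395%. The ranges of the diets overlapped in each of the 15 RNA classes. No class share passed a two-sided exact permutation test between the diets, whose smallest possible p with 3 against 2 libraries is 0.2, and every p adjusted over the 15 classes was 1.0.

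**Figure D1:**
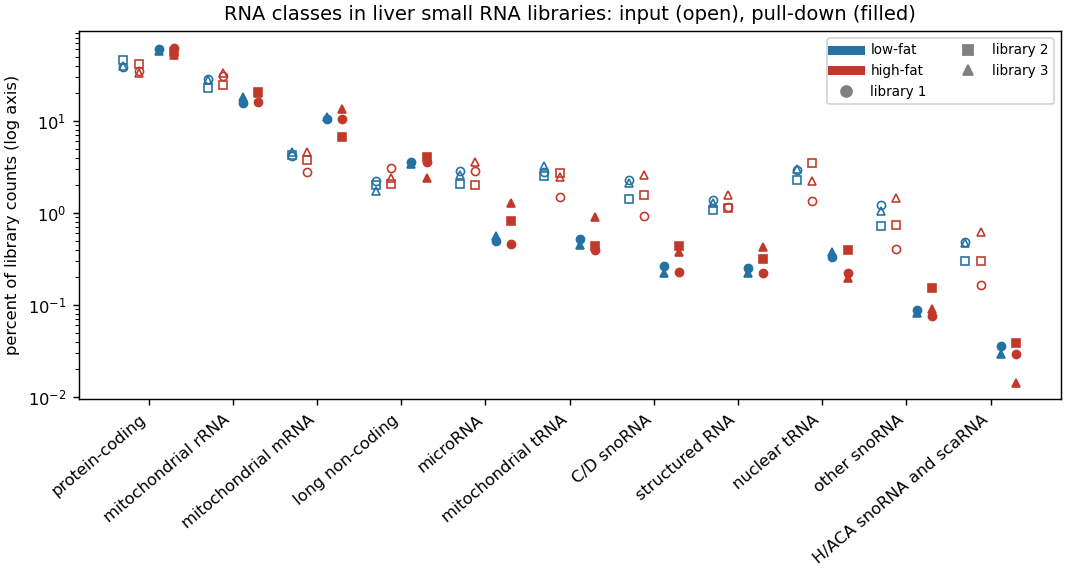
Percent of library counts (log axis) taken by 11 of the 15 RNA classes in the 11 liver small RNA libraries; each point is 1 library, open for input and filled for pull-down, coloured by diet. Protein-coding RNA lies higher in pull-down than in input, microRNA lies lower, and the diets overlap within the pull-down in every class drawn.

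In the pull-down 3 genes differed between the diets at an adjusted p under 0.05 by edgeR's quasi-likelihood test, which is 0.0357% of the 8401 genes tested. Scd1 and Hamp2 fell on the high-fat diet and Nfil3 rose. At an unadjusted p under 0.05 there were 735 genes, or 8.75%, of which 4.69% of tested genes were higher on high fat and 4.06% lower. The values below are CPM, that is counts relative to library size, scaled by the trimmed mean of M values (TMM). In bulk RNA of this kind, fewer cells of a type and less RNA per cell cannot be told apart.

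Scd1 (chr19:44394450-44407709, mm10) encodes stearoyl-CoA desaturase, which makes monounsaturated fatty acids for storage as triglyceride. Its level was 383, 242 and 199 CPM in high-fat libraries 1, 2 and 3 and 5270 and 5100 CPM in low-fat libraries 1 and 3. Both low-fat libraries lay far above all high-fat libraries. Scd1 fell 18.8-fold, from 5190 ± 119 CPM (SD, n = 2) to 275 ± 96.5 CPM (SD, n = 3), with a log2 change of -4.23 ± 0.48 (SE) and an edgeR adjusted p of 0.0012. It was the only one of the 3 genes that passed under each of the 22 settings of the analysis, with log2 changes of -4.54 to -4.03. In input its log2 change was -5.0 ± 0.48 (SE), with an edgeR adjusted p of 0.000118.

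Hamp2 (chr7:30922372-30924181) is the second mouse hepcidin gene, a relative of the iron hormone gene Hamp. It had 12.8, 19.9 and 26.6 CPM on high fat and 89.1 and 197 CPM on low fat. The diets did not overlap, and the low-fat libraries differed more from each other than the high-fat libraries did. Hamp2 fell 7.64-fold, a log2 change of -2.93 ± 0.49 (SE) at an adjusted p of 0.044 by edgeR. The call was lost without high-fat library 1 (adjusted p = 0.152), without high-fat library 2 (0.0999) and without low-fat library 3 (0.264). It was also lost without input high-fat library 2 (0.0645) or input low-fat library 1 (0.052), which share the estimate of spread, and with a mean of at least 10 CPM required (0.0598). Reads shared with the closely related Hamp gene could be split between the copies by the counting, so the value of Hamp2 is uncertain to that extent.

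Nfil3 (chr13:52967209-52982878) encodes E4BP4, a repressor that competes with DBP at D-box elements of clock-controlled genes. Its 3 high-fat libraries had 28.6, 36.5 and 49.3 CPM and its 2 low-fat libraries 6.06 and 6.47 CPM. Every high-fat library lay above both low-fat libraries, whose values were nearly equal. Nfil3 rose 5.83-fold, a log2 change of 2.54 ± 0.4 (SE) at an adjusted p of 0.0365 by edgeR. The call was lost without high-fat library 2 (adjusted p = 0.0587), without low-fat library 1 (0.764) and without low-fat library 3 (0.24), with the log2 change between 2.36 and 2.75 over the 21 settings that gave an adjusted p, since DESeq2 gave none for this gene. It was also lost without input high-fat library 2 (0.061) and with a mean of at least 10 CPM required (0.058). In input the log2 change of Nfil3 was 1.52 ± 0.38 (SE), with an edgeR adjusted p of 0.135.

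The 250 bases before the start sites that the RefSeq promoter table (GRCm38.p6) uses for Nfil3 and Hamp2 are printed because these are called genes of opposite direction with an entry there. For Nfil3 that start lies inside the gene's full span given above, and for Hamp2 it is the end of the span. Capitals mark matches, on either strand, to the letters of the short CRE motif TGACG, the CCAAT box, the BMP-responsive element GGCGCC and the CACCC box.
Nfil3, chr13:52981040-52981289, minus strand: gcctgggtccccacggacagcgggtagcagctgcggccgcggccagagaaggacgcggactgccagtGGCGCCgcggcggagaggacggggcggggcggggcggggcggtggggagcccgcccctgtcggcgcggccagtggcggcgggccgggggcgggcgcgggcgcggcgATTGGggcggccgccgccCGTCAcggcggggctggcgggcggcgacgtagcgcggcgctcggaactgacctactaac
Hamp2, chr7:30924182-30924431, minus strand: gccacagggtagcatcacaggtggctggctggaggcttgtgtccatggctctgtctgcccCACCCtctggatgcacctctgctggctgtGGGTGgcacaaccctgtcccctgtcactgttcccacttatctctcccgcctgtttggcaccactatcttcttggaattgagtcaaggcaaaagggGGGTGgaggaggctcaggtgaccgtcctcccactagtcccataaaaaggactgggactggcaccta
The Nfil3 window held 1 match to TGACG, 1 to CCAAT and 1 to GGCGCC, and the Hamp2 window held 3 matches to CACCC. Of 32851 promoter windows of this length, 17.8% held TGACG, 33.8% held CCAAT, 9.59% held GGCGCC and 52.0% held CACCC. Neither window held the E-box CACGTG (6.02% of windows), the full CRE TGACGTCA (1.55%), TATAAA (12.4%) or the sterol element TCACNCCAC (1.05%).

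A further 11 genes had an adjusted p between 0.05 and 0.1 in edgeR's test and were chosen for naming with their values in view. They did not pass the test, and 9 of them were higher on high fat. Egr1, an immediate early transcription factor, had 169, 235 and 115 CPM on high fat and 36.9 and 16.4 CPM on low fat. Klf6, another early-response transcription factor, had 412, 228 and 486 CPM against 71.2 and 115 CPM. Elovl6, which elongates saturated fatty acids, had 39.3, 35.3 and 10.1 CPM on high fat and 198 and 130 CPM on low fat. The diets did not overlap in any of these 3 genes. Eif2ak3 encodes PERK, a sensor of endoplasmic reticulum stress, and had 49.4, 38.6 and 68.3 CPM on high fat against 12.4 and 18.9 CPM on low fat. Cdkn1a, the gene of the cell-cycle inhibitor p21, had 128, 90.1 and 120 CPM against 14.5 and 27.9 CPM. Chka, a choline kinase of phosphatidylcholine synthesis, had 282, 193 and 144 CPM against 34.5 and 60.7 CPM. In these genes too every high-fat library lay above both low-fat libraries. Junb, Skil, Lonrf3 and Adamts1 had log2 differences of 1.99, 1.55, 1.95 and 1.61, and Fam13a had one of -1.32.

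**Figure D2:**
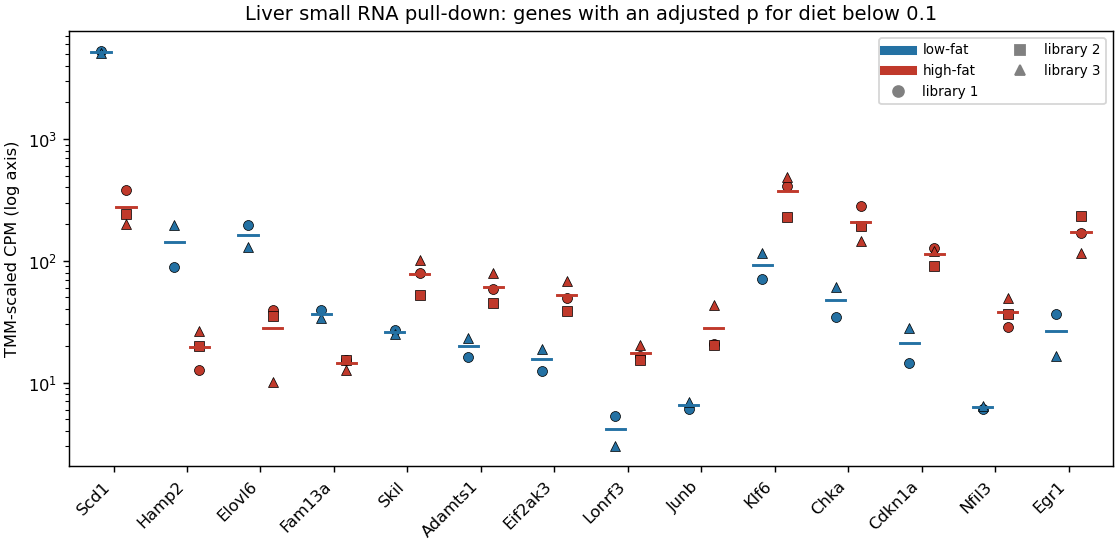
TMM-scaled CPM (log axis) of the 14 genes with an adjusted p under 0.1 for diet in the pull-down; each point is 1 library, its shape gives the library number, and bars are group means. Scd1, Hamp2 and Nfil3 have an adjusted p under 0.05, and the diets are apart in each of the 14 genes.

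Fatty acid and triglyceride synthesis had the lowest median log2 difference of the 7 gene lists drawn here. Of its 25 genes 24 were tested, 1 passed the adjusted test (Scd1), 14 had an unadjusted p under 0.05, all lower, and 14 were lower with no overlap between diets. Over all tested genes, 14.2% were lower and 13.3% higher without overlap, and 4.06% were lower at an unadjusted p under 0.05. The median log2 difference of the list was -0.94, beside 0.02 over all genes. The list contains Scd1, and earlier results of these libraries were known when it was written, so its direction is no independent evidence.

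The enzymes that build palmitate from citrate shared this direction. Acly, which makes cytosolic acetyl-CoA from citrate, had 26.2, 49.4 and 26.6 CPM on high fat and 170 and 76.7 CPM on low fat. Acaca, the acetyl-CoA carboxylase that makes malonyl-CoA, had 68.4, 69.8 and 19.0 CPM against 246 and 138 CPM. Fasn, the fatty acid synthase, had 48.7, 76.4 and 29.1 CPM against 345 and 123 CPM. Low-fat library 1 was higher than low-fat library 3 in all of these, and no high-fat library reached either. Their log2 differences were -1.84 ± 0.44, -1.81 ± 0.43 and -2.16 ± 0.57 (SE), with edgeR adjusted p of 0.164, 0.167 and 0.222. The regulators Srebf1, which encodes SREBP-1, and Mlxipl, which encodes ChREBP, had log2 differences of -1.6 and -1.27, with unadjusted p of 0.000492 and 0.00235. Gpam, which catalyses the first step of glycerolipid synthesis, had 58.9, 49.8 and 41.8 CPM on high fat and 108 CPM in both low-fat libraries. Pnpla3, a lipase-like protein of lipid droplets, had no count in the high-fat libraries and 22 and 0 counts in the low-fat libraries, which put it at least 11.3-fold lower with a floor of 3 counts over the group. That value rested on low-fat library 1 alone.

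Not every step of the pathway had this pattern. Fads1 and Fads2, the desaturases of polyunsaturated fatty acids, had log2 differences of 0.01 and -0.15. Lpin1 and Lpin2, phosphatidate phosphatases, had 0.01 and 0.39, and the diets overlapped in each of these 4 genes.

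Cholesterol synthesis and uptake genes had a smaller median log2 difference of -0.36. Of 24 genes 21 were tested, and none passed the adjusted test. Those with an unadjusted p under 0.05 were 4, all lower, where 4.06% of all genes were. Without overlap 7 were lower (33.3%, beside 14.2% of all genes) and 1 higher (4.76%, beside 13.3%). Pmvk, the phosphomevalonate kinase of the pathway, had 2.43, 4.15 and 1.27 CPM on high fat and 10 and 6.47 CPM on low fat, with no overlap and an edgeR adjusted p of 0.348. Msmo1, a sterol demethylation enzyme, had 57.7, 43.2 and 63.3 CPM against 40.3 and 41.3 CPM and was the one member that was higher without overlap. Sqle, the squalene epoxidase, had 23.6, 18.7 and 55.7 CPM against 25.3 and 27.4 CPM, so high-fat library 3 was above low fat and the other high-fat libraries below it. Without high-fat library 2, 2 of 21 were lower at an unadjusted p under 0.05 and none higher. Without high-fat library 3 there were 4 of 21, again all lower. The share of all genes lower with all libraries was 4.06%.

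Genes of fat oxidation and other PPAR-alpha targets leaned the other way. PPAR-alpha is the nuclear receptor that fatty acids activate in hepatocytes. Of 28 genes 27 were tested, and none passed the adjusted test. At an unadjusted p under 0.05 there were 9, all higher (33.3%, beside 4.69% of all genes). Without overlap 11 were higher (40.7%, beside 13.3% of all genes), and the median log2 difference was 0.59. Pdk4, which restrains glucose oxidation, had 64.1, 23.7 and 43.0 CPM on high fat and 13.4 and 17.9 CPM on low fat. Plin2, a lipid droplet coat protein, had 192, 122 and 104 CPM against 75.9 and 81.1 CPM. Cyp4a14, a fatty acid omega-hydroxylase, had 138, 154 and 97.4 CPM against 9.23 and 69.2 CPM. The low-fat libraries were far apart for Cyp4a14, and the diets did not overlap in any of the 3 genes. Cpt1a, which admits fatty acids to mitochondria, had a log2 difference of -0.0. The count at an unadjusted p under 0.05 was 3 (11.1%) without high-fat library 2, beside 4.69% of all genes higher with all libraries. It was 7 without high-fat library 3 (25.9%, beside 4.79% of all genes higher under that setting).

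Immediate early genes, which respond to stimuli within minutes to hours, had the largest positive median of the 7 lists drawn, 1.43. Of 19 genes 12 were tested, and none passed the adjusted test. At an unadjusted p under 0.05 there were 8, all higher (66.7%, beside 4.69% of all genes), and 10 were higher without overlap (83.3%, beside 13.3%). Junb, a subunit of AP-1, had 20.6, 20.3 and 43.0 CPM on high fat and 6.06 and 6.97 CPM on low fat. Btg2, an antiproliferative early gene, had 15.8, 16.6 and 16.4 CPM against 3.43 and 6.97 CPM. Zfp36, which promotes decay of AU-rich mRNAs, had 34.1, 46.9 and 39.2 CPM against 19.8 and 12.4 CPM. High-fat libraries lay above low-fat libraries in each of these. Fos had 12, 13 and 4 counts against 7 and 4 and was too low to be tested. Without high-fat library 2, and separately without high-fat library 3, 1 gene of the list passed the adjusted test.

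The circadian clock list split by direction. Of 19 genes 17 were tested, and Nfil3 passed the adjusted test. Without overlap 4 were higher (Nfil3, Arntl, Cry1 and Rora) and 6 lower (Dbp, Nr1d1, Tef, Per2, Per3 and Cry2), with a median log2 difference of -0.3. These are 23.5% and 35.3% of those tested, beside 13.3% and 14.2% of all genes. Arntl, which encodes the activator BMAL1, had 15.2, 11.2 and 12.7 CPM on high fat and 3.43 and 1.99 CPM on low fat. Dbp, an output activator, had 1.21, 5.81 and 2.53 CPM against 21.6 and 11.4 CPM. Nr1d1, the repressor REV-ERB alpha, had 21.3, 34.9 and 3.8 CPM against 68.8 and 59.7 CPM. In high-fat library 3 the values rest on 2 counts for Dbp and 3 counts for Nr1d1. Arntl thus stood on the other side of 0 from Dbp and Nr1d1, with log2 differences of 2.19, -2.55 and -1.54 and edgeR adjusted p of 0.153, 0.164 and 0.419. The time of day at which tissue was taken is not given in the labels, and its part in these values was not tested.

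Endoplasmic reticulum chaperone and stress genes had 19 of 22 tested and 5 higher without overlap (26.3%, beside 13.3% of all genes). At an unadjusted p under 0.05 there were 3, all higher (15.8%, beside 4.69% of all genes). Without high-fat library 2 there were 4, all higher (21.1%, beside 4.69% of all genes higher with all libraries). Without high-fat library 3 there were 1 higher (5.26%, near the 4.79% of all genes under that setting) and 1 lower. Atf4, a transcription factor of the stress response, had 163, 135 and 429 CPM on high fat and 83.6 and 110 CPM on low fat. Hspa5, the main chaperone BiP, had 288, 273 and 749 CPM against 289 and 266 CPM. High-fat library 3 alone was high for Hspa5, and the other high-fat libraries were level with low fat. The list's median log2 difference was 0.15 with TMM and -0.06 with total counts, so its direction depends on the scaling. Total counts moved the median of all genes by -0.15 on the log2 scale.

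Plasma protein genes of hepatocytes had 30 of 30 tested, 12 higher without overlap (40%, beside 13.3% of all genes) and 2 at an unadjusted p under 0.05 (6.67%, near the 4.69% of all genes), with none past the adjusted test and a median log2 difference of 0.42. Hp, which encodes haptoglobin, had 384, 519 and 573 CPM on high fat and 251 and 288 CPM on low fat. Alb had 15400, 23500 and 16300 CPM against 18700 and 22100 CPM. The diets overlapped for Alb and not for Hp. Without high-fat library 2 the list's median was 0.15, and 1 gene was higher and 1 lower at an unadjusted p under 0.05. The 1 higher is 3.33%, beside 4.69% of all genes higher with all libraries. Without high-fat library 3 it was 0.55, with 7 genes at an unadjusted p under 0.05 (23.3%, beside 4.79% of all genes higher under that setting) and 20 higher without overlap (66.7%, beside 20.3%).

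**Figure D3:**
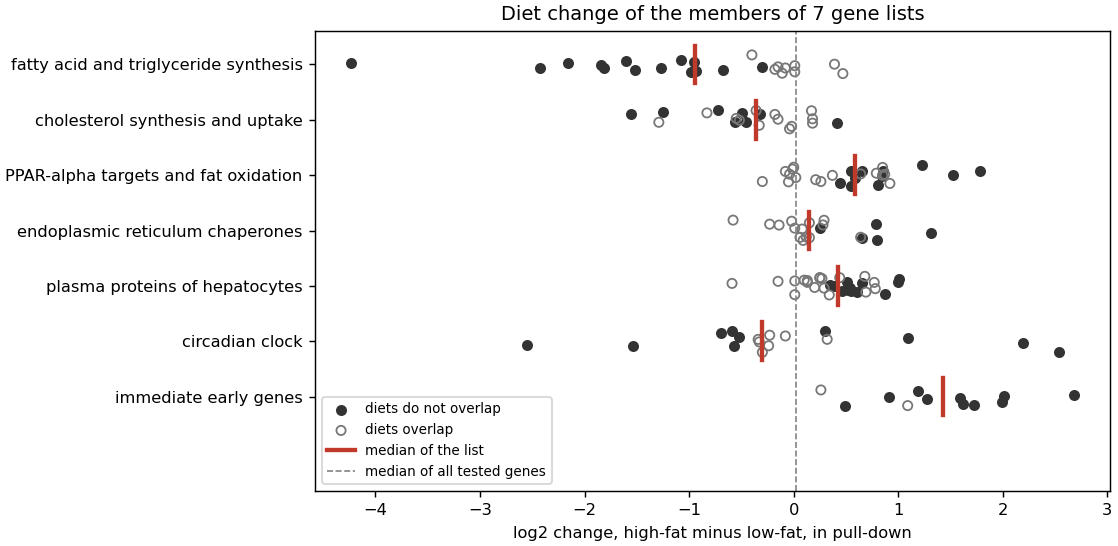
Log2 difference between the diets (high-fat minus low-fat, in pull-down) for the tested members of 7 gene lists; each point is 1 gene, filled where the diets do not overlap, and red bars are list medians. Fatty acid synthesis has a median of -0.94 and immediate early genes one of 1.43, beside 0.02 for all genes (dashed line); Pnpla3, at 0 in the high-fat libraries, is not drawn.

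Other cell types were looked for by their markers. Macrophage markers had 7 of 7 tested and 2 higher without overlap, Clec4f and Vsig4 (28.6%, beside 13.3% of all genes). Their summed level was 86.1 to 151 CPM on high fat and 79.1 to 90.2 CPM on low fat. Endothelial markers had 5 of 6 tested and 1 higher without overlap, Stab2, with 95.8 to 171 CPM against 75.2 to 99.5 CPM. Stellate and fibroblast markers had 5 of 6 tested and none without overlap, with 88.7 to 163 CPM against 72.0 to 102 CPM. Summed hepatocyte markers ranged from 32200 to 46000 CPM on high fat and from 34600 to 37700 CPM on low fat. Of the 12 hepatocyte markers 2 were higher without overlap (16.7%, near the 13.3% of all genes). With so few markers per list, counts of 1 or 2 do not set a cell type apart from all genes. Lymphocyte and erythroid markers overlapped between the diets in all tested members (2 of 4 and 3 of 5). Cholangiocyte and adipocyte markers were too low to be tested, and the adipocyte genes Lep and Plin1 had no count in any of the 5 libraries. The part of non-hepatocyte RNA in the diet differences was not tested.

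Of 1195 microRNA genes in the files 40 were tested and none passed the adjusted test of edgeR, which called 0.0357% of all genes. At an unadjusted p under 0.05 there was 1 (Mir6236), or 2.5%, beside 8.75% of all genes. Without overlap 1 was higher (2.5%, beside 13.3% of all genes) and 3 were lower (7.5%, beside 14.2%). Their median log2 difference was -0.06. The filter that admits a gene also counts the input libraries, and 8 of the 40 had no count in a diet group of the pull-down. With the 5 pull-down libraries alone 13 were tested, and 1 (7.69%) had an unadjusted p under 0.05. The low shares among the 40 are therefore no result about microRNA genes. Reads of precursors and of mature microRNAs both enter the count of a microRNA gene here. The mature sequences (RefSeq, GRCm38.p6) of microRNAs among the 10 most abundant genes are printed with the seed, bases 2 to 8, in capitals, to show which of them share one.
let-7g-5p, chr9:106178846-106178867, plus strand: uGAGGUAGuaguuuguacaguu
let-7f-5p (Mirlet7f-2), chrX:151912353-151912374, plus strand: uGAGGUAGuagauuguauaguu
miR-98-5p, chrX:151913229-151913250, plus strand: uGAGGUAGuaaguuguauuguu
miR-192-5p, chr19:6264857-6264877, plus strand: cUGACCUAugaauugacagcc
miR-6236, chr9:110281353-110281371, plus strand: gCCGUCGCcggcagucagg
The first 3 share the let-7 seed GAGGUAG, while miR-192 and miR-6236 each have their own.

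Mir122 had 3589, 1267 and 428 counts in high-fat libraries 1, 2 and 3 and 2551 and 1589 counts in low-fat libraries 1 and 3. Scaled, these were 622, 526 and 541 CPM against 673 and 791 CPM, so the high-fat libraries were the lower ones with no overlap. The log2 difference of -0.38 ± 0.51 (SE) was smaller than its error, with an edgeR adjusted p of 0.885. Without Mir6236, Mir122 took 80.5%, 74.0% and 71.9% of microRNA counts on high fat and 78.4% and 80.1% on low fat, and these shares overlapped.

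Genes of microRNAs with the let-7 seed had far fewer counts than Mir122. Mirlet7c-1 had no count in the high-fat libraries and 1 count in each low-fat library. Mirlet7g had 185, 69 and 14 counts on high fat and 113 and 84 on low fat, or 32.1, 28.6 and 17.7 CPM against 29.8 and 41.8 CPM. Mirlet7f-2 had 13.9, 16.6 and 21.5 CPM against 18.5 and 24.4 CPM, and Mir98, which lies near it on chromosome X, had 3.29, 5.81 and 13.9 CPM against 3.96 and 8.46 CPM. The diets overlapped in Mirlet7g, Mirlet7f-2 and Mir98, and their log2 differences were -0.39 ± 0.46, -0.37 ± 0.45 and -0.01 ± 0.59 (SE). Mir192, a liver and gut microRNA, had 9.01, 10.4 and 8.86 CPM against 10 and 9.46 CPM, a log2 difference of -0.05 ± 0.56 (SE).

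Mir6236 had the most counts of the class and the widest range. It had 1900, 5640 and 8580 CPM in high-fat libraries 1, 2 and 3 and 2010 and 2620 CPM in low-fat libraries 1 and 3. High-fat libraries 2 and 3 were high, while high-fat library 1 was the lowest of all, so the diets overlapped. Its log2 difference was 1.22 ± 0.56 (SE), with an edgeR adjusted p of 0.555. It made up 71.1%, 88.8% and 91.9% of microRNA counts on high fat and 70.0% and 72.6% on low fat, and high-fat libraries 3 and 2, with the highest shares of Mir6236, also had the highest microRNA shares of the 5. The difference in microRNA share between diets was 0.323 percentage points, or 0.107 without high-fat library 3. With Mir6236 left out of the microRNA counts, and Mir6236 and rRNA left out of the total, it was -0.0475. Whether the reads counted at Mir6236 come from a microRNA was not tested.

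Several microRNAs known from lipid metabolism or from other cells gave no value. Mir33, the intronic partner of Srebf2, and Mir21a, Mir22, Mir223, Mir126a and Mir451a had no count in any of the 5 libraries, and a gene listed at 0 here may have lost reads that overlap a host gene or match several loci, since the handling of such reads is not given in the sources used here. Mir34a had 2, 0 and 2 counts on high fat and none on low fat, and Mir802 had 3, 12 and 0 against 5 and 6. Mir148a had at most 3 counts in a library.

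**Figure D4:**
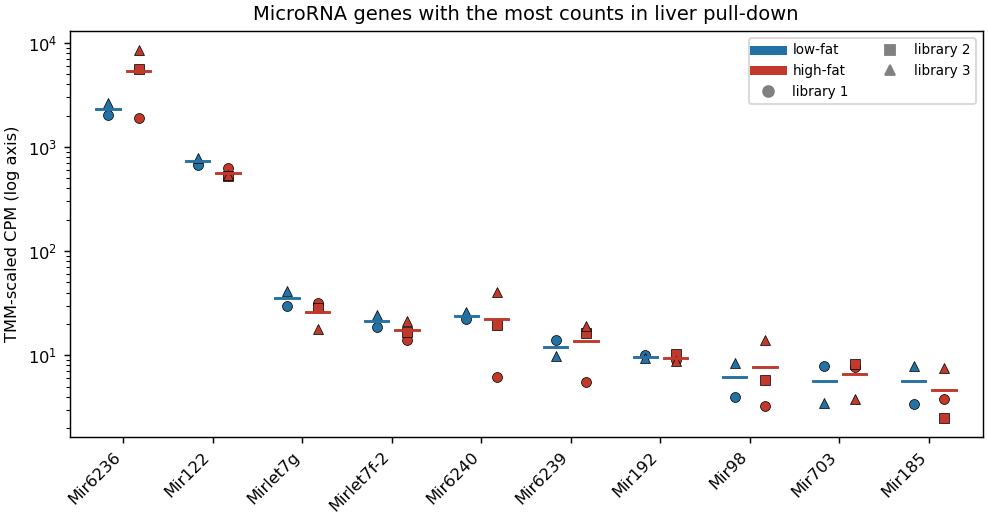
TMM-scaled CPM (log axis) of the 10 microRNA genes with the most counts in the pull-down; each point is 1 library, its shape gives the library number, and bars are group means. Mir6236 ranges from 1900 to 8580 CPM among the high-fat libraries, and for Mir122 the high-fat libraries lie at 526 to 622 CPM, below both low-fat libraries.

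Small nucleolar RNAs of the C/D class, which guide methylation of rRNA, had 40 of 99 genes tested, 6 higher and 1 lower without overlap and 5 at an unadjusted p under 0.05, all higher. The 6 are 15% of those tested, near the 13.3% of all genes, and the 5 are 12.5%, beside 4.69% of all genes. Snord104 had 476, 1620 and 1330 CPM on high fat and 421 and 428 CPM on low fat. Snord66 had 21.1, 58.1 and 67.1 CPM against 19.0 and 19.9 CPM, and Snord85 had 11.1, 42.4 and 53.1 CPM against 8.44 and 11 CPM. In these genes high-fat library 1 was close to low fat and high-fat libraries 2 and 3 were high, as for Mir6236. The median of the class was 0.21, and without high-fat library 2 it was -0.2, with 2 genes at an unadjusted p under 0.05 and 12 lower without overlap (30.0%, beside 21.8% of all genes without that library). The H/ACA snoRNAs, which guide pseudouridylation, had 25 of 51 tested, 1 higher without overlap and a median of 0.03, or -0.13 with total counts and -0.33 without high-fat library 2, where 8 (32.0%) were lower without overlap.

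Nuclear tRNA genes had 128 of 435 tested, 18 lower and 4 higher without overlap, and a median log2 difference of -0.22. The 18 are 14.1% of those tested, level with the 14.2% of all genes. Without high-fat library 2, which lies closest to input, 60 were lower without overlap (46.9%, beside 21.8% of all genes) and the median was -0.71, beside 0.02 over all genes. By anticodon, aspartate GTC tRNA genes took 22.9%, 24.4% and 11.5% of nuclear tRNA counts on high fat and 21.3% and 32.9% on low fat. Selenocysteine TCA tRNA took 16.1%, 17.6% and 15.4% against 16.9% and 16.2%. The diets overlapped in both. Mitochondrial tRNA had 12 of 22 genes tested and none without overlap, with mt-Ts2 at 47.1, 64.4 and 461 CPM against 81.2 and 58.7 CPM, so that high-fat library 3 alone was high. Structured RNAs had 6 of 10 tested with none without overlap, led by Rn7sk, the 7SK RNA that holds P-TEFb inactive, at 986, 1770 and 2740 CPM against 979 and 1020 CPM. Their median log2 difference was 0.22, or -0.02 with total counts. Without high-fat library 2 it was -0.36, with 3 of the 6 lower without overlap, beside 21.8% of all genes under that setting.

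In the input libraries of the same tissue, 17 of the 8401 genes (0.202%) differed between the diets by edgeR's test, among them Scd1, Hamp2, Eif2ak3, Elovl6, Egr1 and Chka. The test of whether the diet difference itself differed between pull-down and input called 0 genes (0.0%), with 331 (3.94%) at an unadjusted p under 0.05, and DESeq2 also called 0, with 189 at an unadjusted p under 0.05. The 2 diet comparisons share no libraries, and the labels do not say whether a pull-down library was made from the RNA of an input library.

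By list, fatty acid synthesis had a median log2 difference of -0.94 in pull-down and -1.03 in input, and immediate early genes 1.43 and 1.2. The gene-by-gene difference of differences, pull-down minus input, had a median of 0.48 in the fatty acid list, beside 0.03 over all genes. For it, 4 of the list's 24 tested members had an unadjusted p under 0.05, all positive, beside 3.94% of all genes in either direction. Fat oxidation genes had 0.59 and 0.3, and plasma protein genes 0.42 and -0.13. Some lipogenic genes had a larger size in input: Acss2, which activates acetate, had -0.98 in pull-down and -2.76 in input, and Me1, the malic enzyme that supplies NADPH, had -0.93 and -1.95. Arntl had 2.19 and 0.62, with an unadjusted p of 0.0445 for the difference of differences. Irs1, an insulin receptor substrate chosen after its values were seen, had 14.9, 19.1 and 17.7 CPM on high fat and 42.5 and 48.8 CPM on low fat in pull-down. Its log2 difference was -1.42 in pull-down and 0.37 in input, with an unadjusted p of 0.00326 for the difference of differences. None of these passed the adjusted test, whose smallest adjusted p over all genes was 0.935.

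**Figure D5:**
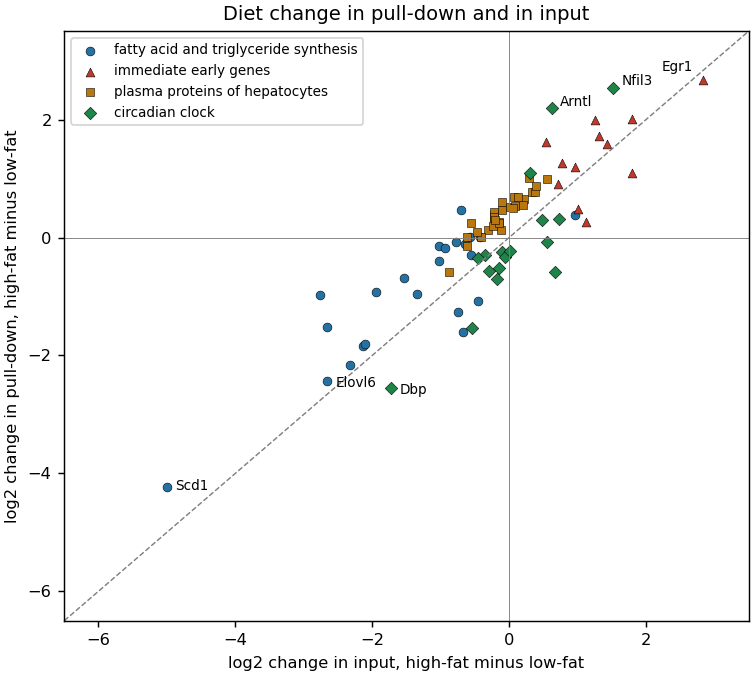
Log2 difference between the diets in input (horizontal axis) and in pull-down (vertical axis) for the tested members of 4 gene lists; each point is 1 gene and the dashed line marks equal values. Scd1 lies lowest at -5.0 and -4.23, immediate early genes are above 0 on both axes, and Arntl and Nfil3 lie above the line; Pnpla3, at 0 in the high-fat pull-down libraries, is not drawn.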

How the data were processed

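Each library has 1 deposited file of unnormalized read counts per gene. The submitters' processing notes name STAR, HTSeq and the mm10 build. Tool versions, annotation release, strand setting and the treatment of multi-mapping reads are not stated in any source used here. Per the labels, tissue was frozen, RNA was extracted with NucleoZOL, and libraries used the CATS small RNA kit. Each file lists 55273 features (54838 Ensembl genes and 435 tRNA genes) with 0 summary rows. Symbols matched 54723 identifiers, and gene classes and positions were taken from RefSeq (GRCm38.p6). The human transgene is not in mm10.

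All 11 liver small RNA libraries were fitted with edgeR 4.0.16 (R 4.3.3) with 1 coefficient per group, TMM scaling, filterByExpr (minimum count 10, minimum total 15), the quasi-likelihood F test and Benjamini-Hochberg adjustment over 8401 genes, with calls at 0.05. The SE is the log2 change divided by the square root of F. On simulated counts of this comparison the fit, with 7972 genes tested, recovered 27 of 100 genes changed 2-fold and 96 of 100 changed 4-fold, with 5 false calls. The simulation gave all genes the same spread and both fractions the same profile, and the changed genes were among the most abundant. Genes with a wider spread or a lower level can be recovered less often. In the data Egr1 (6.39-fold) and Elovl6 (5.38-fold) did not pass. No duplicate libraries were found: chi-square per degree of freedom was 3.86 to 29.3 within pull-down groups. A group at 0 was bounded by 3 counts over the group. Reads carry no molecular identifiers, so this floor allows for counting error and nothing else.

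The compared libraries and the gene lists were chosen with earlier results of these data known. Named genes were those called with no overlap between diets, a mean at or over the median and a proper symbol (up to 8 rises and 8 falls per kind), the 3 smallest p among microRNA genes, the 10 most abundant microRNA genes and genes fixed by name; examples from lists were chosen after their values were seen. Alternatives were other scalings, filters, DESeq2 1.42.0, the 5 pull-down libraries alone, a block by library number and leaving out each library. Some members of the gene lists are counted in their list and not reported here by name.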

Additional observations from a re-analysis of the deposited data

How the results depend on the processing

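The count of 3 diet calls in pull-down was 7 with RLE factors, 7 with total counts, 14 with factors from microRNA genes, 3 without rRNA and Mir6236 in the library size, 80 with no filter, 1 with a mean of at least 10 CPM, 22 with DESeq2 and 6 with the 5 pull-down libraries alone. Leaving out 1 library gave 1 to 7. The input count of 17 was 30 with total counts, 39 with microRNA factors, 149 with no filter and 71 with DESeq2, and 2 to 34 with 1 library left out. The difference between fractions, 0 calls, gave 1 with microRNA factors, 5 with no filter and 0 under the other settings. The cause of these shifts was not tested.

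Libraries share numbers, but the labels do not say that a number marks an animal, so the numbers were not taken as pairs. The deviations of same-numbered pull-down libraries across diets correlated at 0.02 and -0.0. Those of same-numbered input and pull-down libraries of one diet correlated at 0.03 to 0.27. Libraries of unlike number were not correlated in this way, so these values cannot decide whether the fractions are paired. With a replicate block the pull-down count was 22 (11 libraries) or 132 (5 libraries), the input count 42 and the difference 0.

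Among named genes 1070 log2 values kept direction and call, 99 passed the threshold where the main value did not, 11 lost it and 22 turned sign. The turned values were 0.0, 0.04, 0.0, 0.38 and 0.19 for Mir98 (RLE, microRNA factors, 5 libraries alone, both blocks), 0.25 for Mir192 and 0.14 for Mir148a (block, 11 libraries) and 0.06 for Mir185 (block, 5 libraries). With 1 library left out, log2 differences ranged from -0.48 to 0.57 for Mir98, -0.11 to 0.03 for Mir192, -0.75 to 2.88 for Mir148a, -0.97 to 0.19 for Mir185, -0.41 to 0.51 for Mir6239, -0.96 to 0.26 for Mir6240, -0.12 to 1.08 for Mir703, -3.74 to 0.0 for Mir145a and -6.52 to 0.0 for Pnpla3. The microRNA share difference was -0.0475 percentage points with rRNA and Mir6236 left out of both the class counts and the total, and 6 of 15 class differences turned sign without 1 library. With 2 low-fat libraries, each decides a call for Nfil3, and where 1 remains its spread is taken from the other groups. High-fat library 3 has 573697 counts, so 3 counts in it are 3.8 TMM-scaled CPM, and values at or under that level rest on 3 counts or fewer there.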
